A study of Mus musculus with 4 samples.

Results

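The cells described here were CD4-CD8- unconventional αβ T cells (UTCαβ) from mouse sarcomas that held a transcript of Pdcd1, which encodes the inhibitory receptor PD-1, together with a transcript of Lag3, Havcr2 (the gene of TIM-3) or Tigit. A cell was a member when its barcode had at least 200 genes, at most 20000 UMIs (unique molecular identifiers, each counting a captured RNA molecule) and at most 10% mitochondrial UMIs. It also needed at least 1 UMI of Cd3e, a signaling chain of the T cell receptor complex, 1 of Pdcd1 and 1 of a partner among Lag3, Havcr2 and Tigit. Cells with any UMI of Foxp3 or Gzmk, or with 3 or more of Il17a, were left out. These conditions were met by 162 cells, out of 21342 cells with Cd3e within the same limits and 32525 deposited barcodes. The 4 genes therefore chose the cells, and their levels are given as a description, with no test.

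UTCαβ were sorted from sarcomas that the carcinogen 3-methylcholanthrene (3-MCA), injected under the skin, had raised in male C57BL/6J mice, in a study of how neutrophils shape T cell immunity against such tumors. Mice with the receptor for granulocyte colony-stimulating factor (Csf3r+/+) were set against mice that lacked it (Csf3r-/-) and were neutropenic, with 2 samples of each genotype. The deletion was carried by every cell of the animal and not by neutrophils alone. The sort kept CD45+, CD11b-, TCRβ+, TCRγδ-, CD4- and CD8- cells, each sample was loaded into 1 channel for 3′ droplet sequencing, and the 2 libraries of a genotype are told apart here by the number that follows each barcode.

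PD-1, LAG-3, TIM-3 and TIGIT are receptors that dampen T cells after they bind ligands on tumor cells and myeloid cells. T cells that meet their antigen for a long time, as in tumors, can carry several of them together with the transcription factor TOX, a state known as exhaustion or chronic stimulation. The same receptors also appear for a short time after an ordinary activation, alongside costimulatory receptors of the tumor necrosis factor receptor family. Pdcd1 lies at chr1:94038305-94052553 (minus strand, GRCm38), Lag3 at chr6:124904361-124911705 (minus), Havcr2 at chr11:46454935-46481255 (plus) and Tigit at chr16:43648867-43664146 (minus), all protein-coding genes.

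Members numbered 27 and 33 in Csf3r+/+ libraries 1 and 2, and 37 and 65 in Csf3r-/- libraries 1 and 2. The median depth of a member was 4461, 5024, 4549 and 2547 UMIs in that order, above the 2982, 2948, 2171 and 1955 UMIs of cells that lacked all 4 genes in the same libraries. Members were thus deeper than their neighbors in each library, and those of Csf3r-/- library 2 were the shallowest. A barcode was never a member in more than 1 library, although any 2 libraries shared between 33 and 163 barcodes.

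The label of multiple checkpoint receptors held only in its weakest form. Most members had Pdcd1 and exactly 1 partner, and 3 of 162 (1.85%) had 2 or more partners. The partner was Lag3 alone in 81 cells, Havcr2 alone in 64 and Tigit alone in 14. In 60 members (37.0%) the call rested on the smallest possible evidence, 1 UMI of Pdcd1 and 1 of a partner. These had a median of 2946 UMIs, against 4159 UMIs for the 102 members with 3 or more UMIs over the 4 genes. Just outside the rule, the 1362 cells with 1 UMI of Pdcd1 and no partner had a median of 2225 UMIs, and the 445 cells with 1 partner UMI and no Pdcd1 had 3394.

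The partner differed between libraries. Lag3, which encodes a receptor for MHC class II, was found in 25 of 27 and 20 of 33 members of the Csf3r+/+ libraries, and in 22 of 37 and 17 of 65 members of the Csf3r-/- libraries. Havcr2 was found in 4, 3, 14 and 46 members of the same libraries. Tigit, a receptor for CD155, was found in 0, 10, 1 and 3, and the count of 0 among 27 cells allows a share of up to 11.1%, taken here and below as 3 counts of the total (exact 95% upper bound 12.8%). Lag3 was thus the usual partner in 3 libraries and Havcr2 in Csf3r-/- library 2, where it was in 70.8% of members (95% exact binomial interval 58.2% to 81.4%). Intervals and such limits cover counting error only. Summed over members, Pdcd1 stood at 767, 633, 418 and 595 CPM (the UMIs of a gene relative to all UMIs of the same cells, on the usual CPM scale), with up to 21 UMIs in 1 cell.

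**Figure D1:**
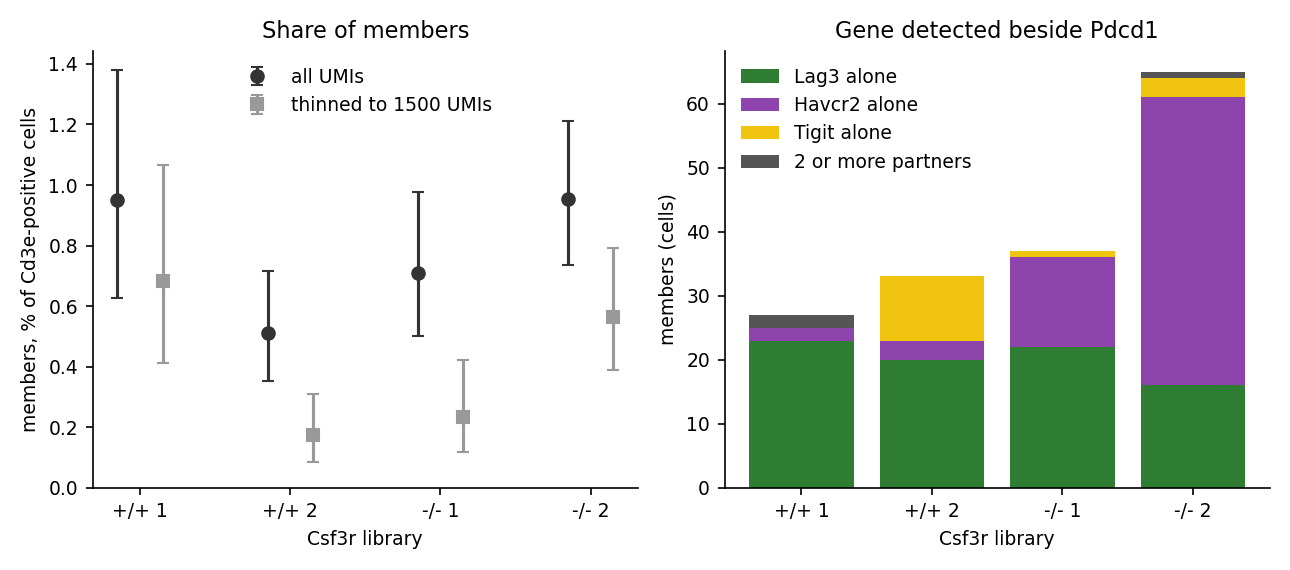
Left: share of members among cells with Cd3e in each library, in percent, from all UMIs and after thinning each cell to 1500 UMIs, with 95% exact binomial intervals as bars. Right: number of members by partner gene in each library; Havcr2 is the most frequent partner in Csf3r-/- library 2, in 46 of 65 members, and Lag3 in the others.

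Members made up 0.950% (0.627% to 1.38%) and 0.511% (0.352% to 0.717%) of cells with Cd3e in Csf3r+/+ libraries 1 and 2. They made up 0.709% (0.500% to 0.977%) and 0.952% (0.736% to 1.21%) in Csf3r-/- libraries 1 and 2. The genotypes overlapped, with the lowest library from Csf3r+/+ mice and the highest shares of either genotype nearly equal. Csf3r+/+ mice had a mean of 0.730% ± 0.310 (SD, n = 2). Csf3r-/- mice had a mean of 0.831% ± 0.172 (SD, n = 2), a difference of 0.101 percentage points (p = 0.667, two-sided exact permutation test, whose smallest possible p here is 0.333). After random thinning of all cells to a common 1500 UMIs, for which 1718 cells were too shallow, the shares were 0.683%, 0.174%, 0.235% and 0.564%, and the difference turned to -0.0291 percentage points. No direction can be given for the share by genotype.

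Pdcd1 itself was found in 9.99% and 5.34% of cells with Cd3e in the Csf3r+/+ libraries and in 13.6% and 33.2% in the Csf3r-/- libraries, so most Pdcd1-positive cells had no partner detected. A partner was found in 38.4%, 15.4%, 8.05% and 6.13% of all Pdcd1-positive cells, against 6.88%, 3.55%, 2.77% and 2.89% of all Pdcd1-negative cells of the same libraries. With Foxp3, Gzmk and Il17a cells left out of both, as for members, the shares were 15.7%, 11.3%, 6.56% and 4.84% against 6.02%, 3.30%, 2.62% and 2.68%. The summed partner share was higher beside Pdcd1 in each library, also after thinning, at 15.6%, 6.47%, 3.16% and 3.32% against 2.82%, 1.41%, 1.71% and 2.1%. It did not hold for each partner: in Csf3r-/- library 2, Lag3 was found in 1.27% of cells with and 1.27% without Pdcd1. Tigit was found in 0 of 172, 10 of 292, 1 of 564 and 3 of 1343 of these cells with Pdcd1, against 6 of 2491, 62 of 5975, 1 of 4268 and 13 of 3695 without it. Only in Csf3r+/+ library 2 did the exact 95% binomial intervals stand apart (1.65% to 6.21% against 0.796% to 1.33%). After thinning they overlapped there too, at 2 of 170 cells with Pdcd1 (0.143% to 4.185%) against 24 of 6049 without it (0.254% to 0.59%). In the 3 other libraries a difference in Tigit was not detectable at this depth, and none was tested. As a measure of free RNA, 151 barcodes with B cell genes were read (median 1513 UMIs, against 2466 UMIs for cells with Cd3e). They held no UMI of any of the 4 genes, which allows up to 1.99% for each (exact 95% upper bound 2.41%). These barcodes numbered 13, 31, 103 and 4 in the 4 libraries, with exact 95% upper bounds of 24.7%, 11.2%, 3.52% and 60.2%. The pooled limit thus says little about Csf3r-/- library 2. In 66 barcodes with macrophage genes, of median depth 5944 UMIs, Lag3 was found in 25.8% and Havcr2 in 30.3%, whereas Pdcd1 and Tigit were at 0.

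The markers of other cells in the sort were therefore followed in the members. Neutrophil markers, 8 genes including Csf3r itself, were at 0 in the depth-matched members of every library. Macrophage markers, 12 genes led by the lipid carrier Apoe, summed to 54.8, 30.9 and 75.0 CPM in the first 3 libraries and to 2334 CPM in Csf3r-/- library 2, against 0, 1577, 5.38 and 1094 CPM in the matched cells. At least 1 of 8 macrophage and B cell genes was found in 6, 4, 6 and 21 matched members and in 0, 3, 2 and 25 matched cells of equal number, so that members were higher in 3 libraries and lower in Csf3r-/- library 2. Over all cells with no depth matching, the macrophage genes C1qa, C1qb and C1qc, chains of complement C1q, were called higher in members, out of 6 macrophage genes tested. In the matched cells most of the macrophage sum came from single barcodes, which held 304 of 307 macrophage UMIs in Csf3r+/+ library 2 and 190 of 223 in Csf3r-/- library 2. A further member of Csf3r-/- library 2, which had no matched cell and is not in these sums, held 1219 such UMIs. Barcodes holding 2 cells could not be told apart from cells with both programs, since no doublet caller was run and only the limit on UMIs bears on them. T cell markers, of which 8 of 11 were listed in the files, summed to 7652, 4207, 6704 and 6120 CPM in members and to 6149, 3936, 6348 and 6088 CPM in matched cells, and both had passed the Cd3e minimum.

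To ask what else distinguished the members, each was paired with the cell lacking all 4 genes that was nearest in total UMIs, in the same library and within 10%. This gave 160 pairs, since 2 members of Csf3r-/- library 2 had no such cell, and the UMIs of each class were summed per library. edgeR's quasi-likelihood test with the library as a block called no gene of 2552 tested at a Benjamini-Hochberg adjusted p under 0.05 (background 0.0%). At an unadjusted p under 0.05 there were 190 genes (7.45%), 92 higher (3.61%) and 98 lower (3.84%) in members, and DESeq2 called 1. The median log2 fold change over all genes tested was -0.01. A gene was higher in members of 4 of 4 libraries for 227 genes (8.89%) and lower in 4 of 4 for 205 (8.03%). With 5 matched cells per member for the 157 members that had them, an alternative added after the data were seen, the test called 12 of 4451 genes (0.27%), 9 of them higher (0.202%) and 3 lower (0.0674%). With all cells and no matching for depth it called 157 of 9543 genes (1.65%), 74 higher (0.775%) and 83 lower (0.87%). For members with Lag3 and 5 matched cells each it called 30 of 2785 (1.08%), 18 higher (0.646%) and 12 lower (0.431%). The 12 genes called with 5 matched cells per member were chosen by their values, and where they are described below the result with 1 matched cell is given first. Counts and medians of gene lists below cover only genes that passed the filter on low counts. Some could pass it through 1 class alone, such as Rgs16 through members and Klra9 through matched cells. The list counts and medians are thus descriptions and not support for a direction.

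Among costimulatory receptors, Tnfrsf9 (4-1BB), which is induced by antigen receptor signals, was at 383, 226, 96.5 and 250 CPM in members of the 4 libraries, in the order used above. It was at 39.2, 92.5, 26.9 and 83.4 CPM in the matched cells. Members of each library lay above the matched cells of all 4, by a narrow margin, and the log2 fold change was 1.82 (SE 0.29, edgeR adjusted p = 0.0536). It rested on 16, 17, 9 and 21 members with a UMI, against 5, 12, 3 and 9 matched cells. With 5 matched cells per member the log2 fold change was 1.48 (SE 0.18, edgeR adjusted p = 0.00407). Over all settings run the adjusted p of Tnfrsf9 lay between 3.80e-09 and 0.999, and it was called in 7 of 18. Tnfrsf4 (OX40) was at 0, 185, 53.6 and 347 CPM in members and 7.84, 10.3, 5.38 and 14.7 CPM in matched cells, too low for the first test. It was absent from members of Csf3r+/+ library 1 and higher in the 3 other libraries, with a log2 fold change of 3.44 with 5 cells per member (SE 0.34, edgeR adjusted p = 0.00151, and 6.21e-17 to 0.0253 over the 5 settings that tested it). Icos, whose product is a relative of CD28, was at 39.1, 175, 439 and 1018 CPM in members and 118, 118, 490 and 785 CPM in matched cells, and its log2 fold change was 0.02. The log2 fold change was 0.64 for Slamf7 and -0.54 for Cd226. Of the 9 costimulatory genes tested, 1 was higher at an unadjusted p under 0.05 and none was lower, and their median log2 fold change was 0.24.

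The list of transcription factors and other genes tied to chronic stimulation had 12 genes tested. Of these, 5 were higher and 1 lower at an unadjusted p under 0.05, with a median log2 fold change of 0.33. Without barcodes with macrophage or B cell genes, 3 of 8 were higher and 1 lower, with a median of -0.016. With 1 library left out the median ran from 0.27 to 0.69. Some of these genes, such as Rgs16 and Tox, could pass the filter on low counts through members alone, so these counts and medians are descriptions. Rgs16, a member of this list and a brake on chemokine receptor signaling, was at 399, 108, 75.0 and 73.4 CPM in members and at 7.84, 5.14, 0 and 24.5 CPM in matched cells. The 2 sets of libraries did not overlap, and the log2 fold change was 3.72 (SE 0.53, edgeR adjusted p = 0.0536). Leaving out Csf3r+/+ library 1 gave 2.94, and leaving out Csf3r-/- library 2 gave 5.17, which edgeR called (adjusted p = 0.00396). With 5 cells per member it was 2.94 (SE 0.39, edgeR adjusted p = 0.00553), and over all settings the adjusted p lay between 1.10e-15 and 0.999. The count of members with a UMI was 18 of 27 in Csf3r+/+ library 1 but 3 of 37 in Csf3r-/- library 1, so the level rested on few cells outside the first library.

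Tox, a factor required for exhausted T cells to persist, was at 235, 129, 134 and 83.2 CPM in members and at 15.7, 61.7, 48.4 and 73.6 CPM in matched cells. It was higher in members of each library, least so in Csf3r-/- library 2, where the values nearly met. Its log2 fold change was 1.31 (SE 0.40, edgeR adjusted p = 0.482), from 0.84 without Csf3r+/+ library 1 to 1.77 without Csf3r-/- library 2, and 1.84 with 5 cells per member (SE 0.30, edgeR adjusted p = 0.0307, and 0.000208 to 0.9997 over all settings). It was found in 17, 14, 14 and 12 members against 2, 9, 7 and 11 matched cells. Batf, an AP-1 factor of activated T cells, was even over the libraries, at 117, 113, 134 and 103 CPM in members and 31.4, 71.9, 43.0 and 73.6 CPM in matched cells (log2 fold change 0.98, SE 0.28, edgeR adjusted p = 0.482). Id2, a partner of E proteins in effector cells, went the other way, at 587, 375, 659 and 592 CPM against 1318, 514, 845 and 638 CPM (log2 fold change -0.54). Rgs1, the most abundant of the list, had a log2 fold change of -0.09.

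**Figure D2:**
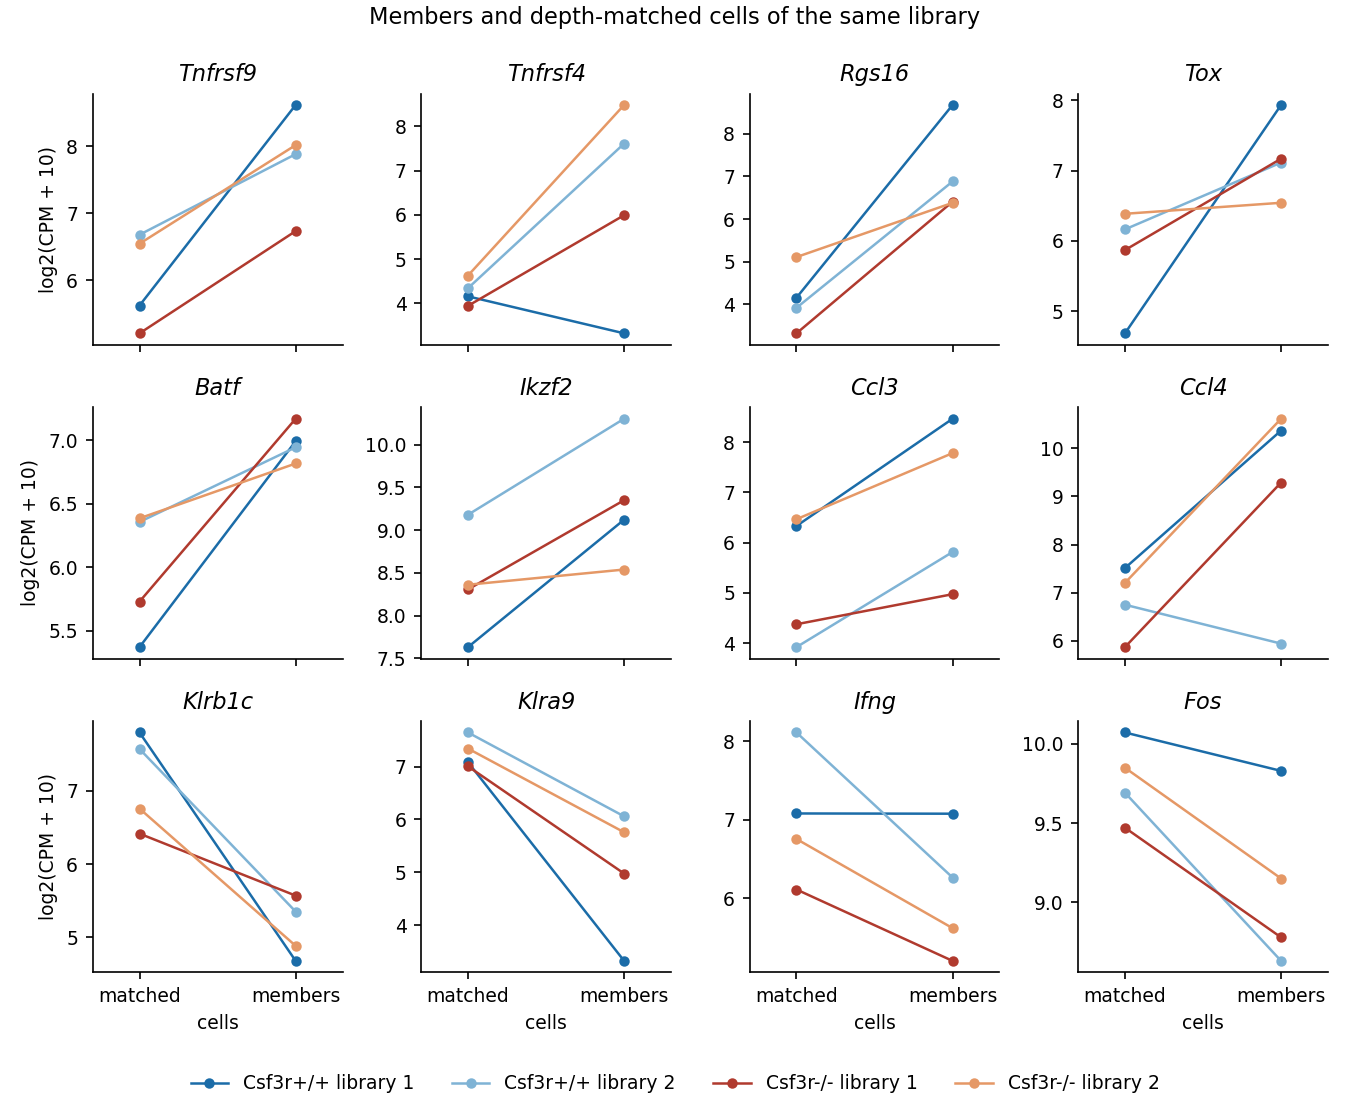
Level of single genes in members and in depth-matched cells lacking the 4 checkpoint genes, as log2(CPM + 10), with 1 line for each library. Lines for Rgs16, Tnfrsf9, Tox and Batf go up toward members in each of the 4 libraries, and those for Klrb1c, Klra9 and Fos go down in each.

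Among other inhibitory receptors 5 genes were tested, of which 1 was higher at an unadjusted p under 0.05, and their median log2 fold change was 0.06. Cd5, an inhibitor of T cell receptor signals, was at 141, 92.6, 58.9 and 58.7 CPM in members and 15.7, 51.4, 37.7 and 54.0 CPM in matched cells (log2 fold change 0.94, SE 0.40, edgeR adjusted p = 0.648). Ctla4, a competitor of CD28 for its ligands, was too low for the first test, at 15.6, 149, 37.5 and 176 CPM in members and 7.84, 30.8, 5.38 and 54.0 CPM in matched cells. It was higher in members of each library, but in Csf3r+/+ library 1 the values rested on very few UMIs and show no clear difference. The log2 fold change of Ctla4 with 5 cells per member was 2.19 (SE 0.30, edgeR adjusted p = 0.00595, and 0.000136 to 0.191 over the 5 settings that tested it). The log2 fold change was 0.00 for Cd160, 0.13 for Cd72 and -0.26 for Cd96, and the direction of each turned under at least 1 alternative. Sh2d1a, the adaptor SAP, was at 376, 283, 182 and 132 CPM against 94.1, 180, 134 and 132 CPM, with a log2 fold change of 0.70. The adaptor Sh2d2a had one of 0.50 and Socs3, which restrains cytokine signals, one of -1.05. Of 7 inhibitory adaptors and phosphatases tested, 2 were higher and 1 lower at an unadjusted p under 0.05, with a median of 0.28.

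Ctla4 is also a marker of regulatory T cells, as are Tnfrsf4 and Ikzf2 (Helios). Ikzf2 was at 548, 1255, 643 and 362 CPM in members and 188, 570, 307 and 319 CPM in matched cells (log2 fold change 0.93, SE 0.20, edgeR adjusted p = 0.188). It was called in 5 of 18 settings, such as without barcodes with macrophage or B cell genes (1.11, edgeR adjusted p = 0.0434). Of 5 regulatory T cell genes tested, 3 were higher and none lower at an unadjusted p under 0.05, with a median of 0.93. Without barcodes with macrophage or B cell genes, 1 of 3 was higher, with a median of 0.25. Leaving out Csf3r-/- library 2 gave 2 of 4 higher and 1 lower, with a median of 0.62. Capg, the most abundant of the list, went the other way, at 133, 103, 981 and 1336 CPM in members and 878, 139, 1146 and 1035 CPM in matched cells. It was lower in 3 libraries (log2 fold change -0.58, SE 0.36, edgeR adjusted p = 0.742, from -1.01 without Csf3r-/- library 2 to -0.0607 without Csf3r+/+ library 1). Over all cells with no depth matching edgeR called Capg lower (-1.12, adjusted p = 0.00418). Of the 8 genes of the list tested there it called 4 higher, Ikzf2, Izumo1r, Klrg1 and Ctla4. The gate was set for CD4-CD8- cells, and members had no Foxp3 UMI by the rule. Foxp3 was found in 23 of 358 cells with Cd3e, Pdcd1 and a partner from the same gate. Whether members included regulatory T cells was not tested.

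Receptors that UTCαβ share with natural killer cells stood mostly at lower levels in members. Of 12 genes of that list tested, 7 were lower and none higher at an unadjusted p under 0.05, 5 were lower in 4 of 4 libraries, and the median log2 fold change was -0.54. With 1 library left out, 4 to 9 were lower, and 2 of 8 without barcodes with macrophage or B cell genes. Klrb1c (NK1.1), which the list of innate-like T cell genes holds, was at 15.6, 30.9, 37.5 and 19.6 CPM in members and at 212, 180, 75.3 and 98.1 CPM in matched cells. No library of members reached the lowest library of matched cells, and the log2 fold change was -2.33 (SE 0.35, edgeR adjusted p = 0.0536). With 5 cells per member it was -2.53 (SE 0.32, edgeR adjusted p = 0.00439, and 2.42e-09 to 0.593 over all settings), and the UMIs were found in 2, 5, 6 and 3 members against 11, 19, 10 and 11 matched cells. Klra9, an inhibitory Ly49 receptor for MHC class I, was at 0, 56.6, 21.4 and 44.0 CPM in members and at 125, 190, 118 and 152 CPM in matched cells. These sets did not overlap either (log2 fold change -2.19, SE 0.35, edgeR adjusted p = 0.0536). Its relative Klra7 was at 86.1, 314, 257 and 215 CPM against 659, 781, 301 and 338 CPM (log2 fold change -1.19), and reads of these similar genes may have been split between them. Tyrobp, the adaptor DAP12 that carries signals of activating Ly49 receptors, had a log2 fold change of -0.90 (SE 0.28, edgeR adjusted p = 0.482).

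Of 5 chemokine genes tested, 2 were higher and none lower at an unadjusted p under 0.05, with a median of 0.49. Ccl3 (MIP-1α), a chemokine that attracts leukocytes, was at 344, 46.3, 21.4 and 210 CPM in members and at 70.6, 5.14, 10.8 and 78.5 CPM in matched cells. Each library was higher in members although libraries differed widely, and few UMIs lay behind the values of Csf3r+/+ library 2 and Csf3r-/- library 1. The log2 fold change of Ccl3 was 1.80 (SE 0.29, edgeR adjusted p = 0.0536), or 2.19 with 5 cells per member (SE 0.25, edgeR adjusted p = 0.00349, and 1.69e-05 to 0.999 over all settings that tested it). Only 2 fits with 1 library left out tested Ccl3, at 1.71 and 1.87. Ccl4 (MIP-1β), its neighbor in function, was at 1314, 51.4, 616 and 1561 CPM against 173, 97.6, 48.4 and 137 CPM. It was lower in members of Csf3r+/+ library 2 and higher in the others (log2 fold change 2.64, SE 0.51, edgeR adjusted p = 0.124, and 3.31 without Csf3r+/+ library 2, where edgeR called it at an adjusted p of 3.52e-05), and 1 member of Csf3r-/- library 2 held 146 of its UMIs. Ccl5 (RANTES), the most abundant of the list, was at 13740, 4336, 3714 and 2436 CPM in members and 3890, 6207, 2200 and 2345 CPM in matched cells (log2 fold change 0.49). Cxcl10, an interferon-induced chemokine, had a log2 fold change of 0.40.

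Effector genes of type 1 T cells had no common direction. Ifng, the cytokine of type 1 immunity, was at 125, 66.9, 26.8 and 39.1 CPM in members and at 125, 267, 59.2 and 98.1 CPM in matched cells. It was equal in Csf3r+/+ library 1 and lower in the other members (log2 fold change -1.21, SE 0.33, edgeR adjusted p = 0.482). Over all settings the log2 fold change of Ifng ran from -1.76 to -0.72, and it was called in 3 of 16. These included all cells with no depth matching (-1.52, edgeR adjusted p = 0.000471) and no cycling cells (-1.76, edgeR adjusted p = 0.0116). Nkg7, a protein of cytotoxic granules, was at 4233, 1029, 1340 and 1145 CPM against 1812, 1480, 1291 and 1423 CPM, with a log2 fold change of 0.08, and its direction turned when Csf3r+/+ library 1 was left out. Of 6 cytotoxic genes tested 1 was higher and none lower at an unadjusted p under 0.05, with a median of -0.07. Of 8 type 1 genes 1 was lower and none higher, with a median of -0.11, and of 9 type 3 genes none passed, with a median of -0.33. Leaving out Csf3r-/- library 2 made 3 of 8 type 3 genes lower, with a median of -0.67. Without Csf3r+/+ library 1 no type 3 gene passed, with a median of -0.11. The 2 cytokine genes tested were Ifng and Ltb, the latter with a log2 fold change of -0.22, and the granule genes Srgn, Serpinb6b and Serpinb9 had log2 fold changes of 0.27, -0.26 and -0.73. Cells with Gzmk or with 3 or more Il17a UMIs were left out of members and matched cells, which takes out part of both programs.

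Genes of the immediate early response to stimulation were lower in members for 5 of 10 tested at an unadjusted p under 0.05, and higher for none, with a median of -0.39. With 1 library left out, 2 to 6 of these genes were lower. Fos was at 900, 386, 429 and 558 CPM in members and at 1067, 817, 699 and 912 CPM in matched cells. It was lower in members of each library (log2 fold change -0.71, SE 0.15, edgeR adjusted p = 0.188). Jun was also lower in each, by a log2 fold change of -0.41. Cd83, a surface protein of activated lymphocytes that is chosen here by its values, was at 7.82, 345, 155 and 401 CPM against 7.84, 51.4, 86.1 and 132 CPM. It was level in Csf3r+/+ library 1 and higher in the 3 other libraries (log2 fold change 1.64, SE 0.30, edgeR adjusted p = 0.0952), and with 5 cells per member its log2 fold change was 1.55 (SE 0.20, edgeR adjusted p = 0.00439, and 4.25e-07 to 0.999 over all settings). Ifi27l2a, an interferon-induced gene, was at 3239, 581, 3017 and 1164 CPM in members and 1255, 473, 1969 and 716 CPM in matched cells, with a log2 fold change of 0.73 (SE 0.16, edgeR adjusted p = 0.188). The interferon list as a whole had 0 of 10 genes higher and 1 lower at an unadjusted p under 0.05, and a median of -0.06.

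Among homing and residency genes, 2 of 11 were higher and 1 lower at an unadjusted p under 0.05, with a median of -0.23. Itga4, the α4 integrin chain that binds VCAM-1, was at 203, 175, 96.5 and 58.7 CPM in members and at 47.1, 82.2, 37.7 and 34.3 CPM in matched cells. It was higher in members of each library (log2 fold change 1.28, SE 0.27, edgeR adjusted p = 0.188). Ccr7, which guides cells to lymph nodes, was at 15.6, 375, 155 and 78.3 CPM against 0, 97.6, 21.5 and 88.3 CPM, higher in 3 libraries and lower in Csf3r-/- library 2 (log2 fold change 1.45, SE 0.42, edgeR adjusted p = 0.482, from 1.06 without Csf3r+/+ library 2 to 2.17 without Csf3r-/- library 2). Cd69 and Cxcr6, both tied to residency in tissue, had log2 fold changes of -0.52 and -0.23. Of 6 genes for ligands of checkpoint receptors, none passed an unadjusted p under 0.05 and the median was -0.55. Cd74, the invariant chain of MHC class II, was at 7.82, 92.6, 53.6 and 1864 CPM in members and 15.7, 730, 877 and 770 CPM in matched cells, and H2-Aa, an MHC class II chain and thus part of a LAG-3 ligand, was at 15.6, 15.4, 5.36 and 807 CPM against 0, 457, 183 and 255 CPM. Both were highest in the members of Csf3r-/- library 2, where macrophage markers were also highest, and the part of the latter was not tested.

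The other lists were as follows. Of 10 S phase genes none passed an unadjusted p under 0.05, and of 3 mitotic genes 1 was higher, while a cycling gene was found in 44 of 160 matched members (27.5%) and 49 of 160 matched cells (30.6%). Of 9 glycolysis genes and 8 heat shock genes none passed, with medians of 0.16 and -0.11. Leaving out Csf3r+/+ library 1 made 3 of 8 heat shock genes lower, with a median of -0.23, and 1 of 9 glycolysis genes higher. Leaving out Csf3r+/+ library 2 made 1 of 9 heat shock genes lower and 1 higher, and 1 of 10 glycolysis genes higher. Of 20 actin and cytoskeleton genes 3 were higher and 2 lower, with a median of 0.05. Actb was at 7066, 3677, 6795 and 6977 CPM in members and 3725, 2548, 5664 and 5450 CPM in matched cells (log2 fold change 0.48), while Tmsb4x, the most abundant of them, had a log2 fold change of -0.08. Of 7 survival genes 2 were higher and 1 lower (median 0.25), of 9 resting T cell genes 1 was higher and 2 lower (median -0.32), and of 8 innate-like T cell genes 2 were higher and 2 lower (median -0.06). Of 7 T cell genes 2 were higher and 1 lower, with a median of 0.13, and the log2 fold change was 0.29 for Cd3g and -0.36 for Thy1.

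**Figure D3:**
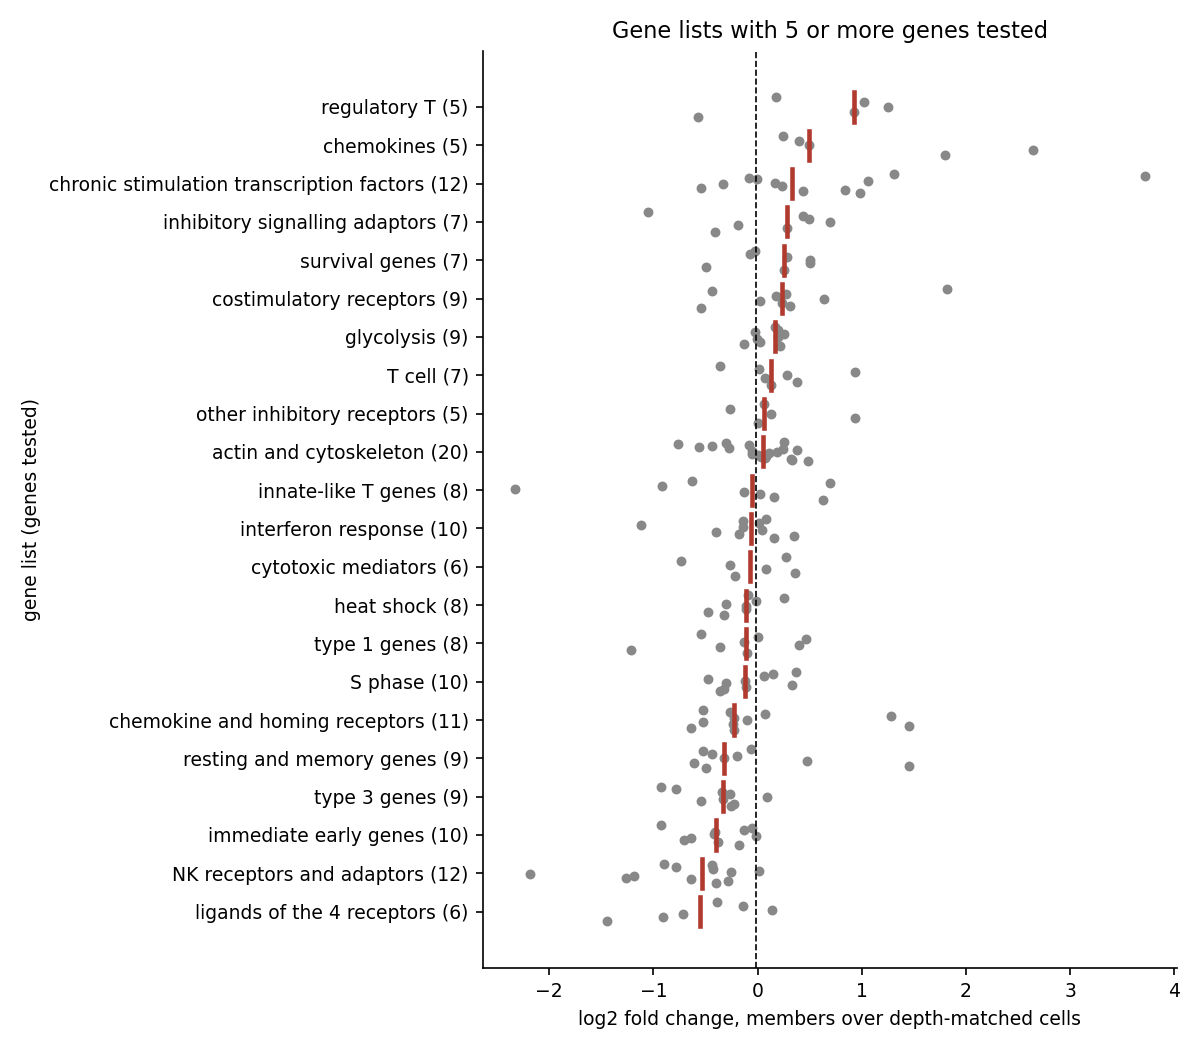
log2 fold change of each tested gene of the lists, members against depth-matched cells, with the list median marked. The list of receptors shared with natural killer cells has a median of -0.54 and the regulatory T cell list one of 0.93, beside -0.01 over all 2552 genes tested. Without barcodes with macrophage or B cell genes, these 2 medians are -0.58 and 0.25. Only genes past the filter on low counts are shown, and some could pass it through members or matched cells alone.

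To separate what went with Pdcd1 from what went with a partner, the same genes were read in all 4 classes of cells, without matching for depth. Rgs16 was at 17.0, 16.2, 3.59 and 13.0 CPM in cells lacking the 4 genes, at 50.0, 61.5, 5.03 and 20.5 CPM in cells with Pdcd1 alone and at 61.6, 46.0, 47.3 and 53.8 CPM in cells with a partner alone. Members exceeded each of the other classes in each library, at 399, 108, 75.0 and 76.5 CPM. Tnfrsf9 was at 76.0, 191, 10.1 and 84.2 CPM with Pdcd1 alone and at 242, 145, 97.1 and 262 CPM with a partner alone, beside 383, 226, 96.5 and 259 CPM in members. Its level in Csf3r-/- members was thus no higher than in cells with a partner and no Pdcd1.

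Klrb1c split the classes in another way. It was at 197, 236, 65.3 and 64.1 CPM in cells lacking the 4 genes and at 494, 186, 112 and 124 CPM in cells with a partner alone. In cells with Pdcd1 alone it was at 28.2, 111, 20.7 and 22.8 CPM, and in members at 15.6, 30.9, 37.5 and 17.0 CPM. In each library both classes with Pdcd1 stood below the cells lacking the 4 genes, whether or not a partner was found.

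**Figure D4:**
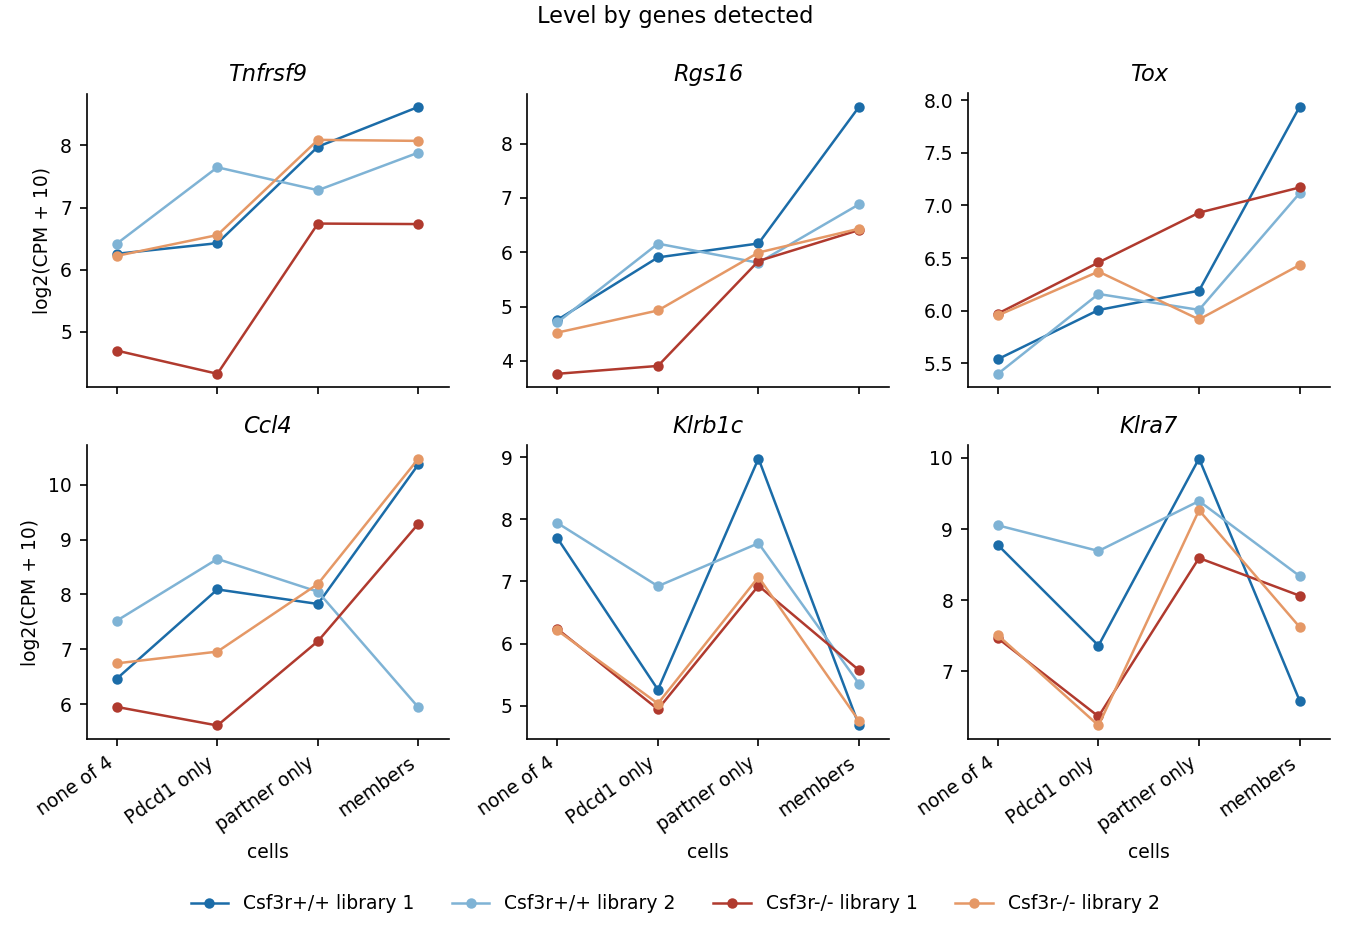
Level of single genes as log2(CPM + 10) in cells lacking the 4 genes, with Pdcd1 alone, with a partner alone, and in members, with 1 line for each library. Rgs16 is highest in members of each library, and Klrb1c is lower in both classes with Pdcd1 than in cells of the same library that lack the 4 genes.

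A direct test set members against cells with Pdcd1 and no partner, matched for depth in the same way for 158 members. edgeR called 0 of 2421 genes (background 0.0%), with 182 genes (7.52%) at an unadjusted p under 0.05, 90 higher (3.72%) and 92 lower (3.8%), and DESeq2 called 0, with 55 genes at an unadjusted p under 0.05. A gene was higher in members of 4 of 4 libraries for 196 genes (8.1%) and lower in 4 of 4 for 235 (9.71%). Tnfrsf9 was at 392, 226, 105 and 248 CPM in the matched members and at 49.8, 144, 6.19 and 32.2 CPM in matched Pdcd1-only cells. It was higher beside a partner in each library (log2 fold change 2.06, edgeR adjusted p = 0.198). Leaving out Csf3r+/+ library 1 gave 1.75 for Tnfrsf9, and leaving out Csf3r+/+ library 2 gave 3.08, which edgeR called (adjusted p = 0.00148). Plac8, a small protein found in many leukocytes that is chosen here by its values, was at 1471, 679, 389 and 184 CPM in members and 490, 390, 136 and 115 CPM in Pdcd1-only cells, higher in each library (log2 fold change 1.17, edgeR adjusted p = 0.198). With 5 cells per member, which 136 members had, edgeR called 4 genes, all higher: Plac8 (adjusted p = 0.0323), Ifi27l2a (adjusted p = 0.0323), Tnfrsf4 (adjusted p = 0.0323) and Cd7 (adjusted p = 0.0334). Over all settings the highest adjusted p of each was 0.99985. Costimulatory genes were higher for 4 of 8 tested at an unadjusted p under 0.05 and lower for none (median 0.63), chemokine genes for 2 of 5 (median 0.96), and type 3 genes were lower for 5 of 10 and higher for none (median -0.99).

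Members of the 2 genotypes were then compared, as sums of the 162 cells by library. edgeR called 25 of 2694 genes (0.928%) in Csf3r-/- against Csf3r+/+ members, of which 15 rose and 10 fell, and 324 genes (12.0%) had an unadjusted p under 0.05, 163 of them higher (6.05%) and 161 lower (5.98%). The genes that rose included genes of type 3 T cells, the IL-17 program, from a list drawn up with this genotype difference already known. From that list Tmem176a, Tmem176b, Blk and Serpinb1a were called. Only 10 of its 15 genes passed the filter on low counts, some through the Csf3r-/- libraries alone, so no count or median over the tested genes is given. The calls were lost when Csf3r-/- library 2 was left out, after thinning to 1500 UMIs, and with at least 3 UMIs over the 4 genes, each of which left 0. Thinning left 340 genes to test. Over all settings that tested them, the log2 fold changes ran from 3.70 to 5.09 for Tmem176a (not tested after thinning), 3.30 to 5.24 for Tmem176b and 2.75 to 3.38 for Capg. Macrophage markers summed to 7, 6, 14 and 1697 UMIs in the members of the 4 libraries, with 1219 of the last in 1 barcode. Without barcodes with macrophage or B cell genes, edgeR called 45 genes, and the log2 fold change was 3.18 for Capg, 3.76 for Ccr2 and 3.53 for Sepp1. Sdc1 (log2 fold change 4.40, edgeR adjusted p = 0.0554) and Gm17430 (-2.77, edgeR adjusted p = 0.0622) were not called there. Blk and Pxdc1 were not tested in that setting.

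Tmem176a and Tmem176b, membrane channel genes found with RORγt-dependent cells, stood at 62.6 and 20.6 CPM (Tmem176a) and 86.1 and 20.6 CPM (Tmem176b) in Csf3r+/+ members. In Csf3r-/- members they were at 713 and 875 CPM and at 782 and 867 CPM. Neither gene overlapped between genotypes, with a log2 fold change of 4.30 for Tmem176a (SE 0.46, edgeR adjusted p = 0.0168) and 4.02 for Tmem176b (SE 0.51, edgeR adjusted p = 0.0252). The genes lie on opposite strands at chr6:48840919-48847071 (Tmem176a) and chr6:48833818-48841496 (Tmem176b) and overlap by 578 bases, so they are not independent readings unless strand was used in counting. Blk, a Src family kinase of B cells and IL-17-producing T cells, had 0 UMIs in Csf3r+/+ members and 62 in Csf3r-/- members. It was thus at least 15.8-fold higher in Csf3r-/- members, against a limit of 3 counts over the group (91.1 and 191 CPM, edgeR adjusted p = 0.0461).

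Other genes that rose included Sdc1 (syndecan-1), a heparan sulfate proteoglycan, at 7.82, 0, 129 and 97.7 CPM (edgeR adjusted p = 0.0445). This was 1 UMI in Csf3r+/+ and 47 in Csf3r-/- members, a ratio of 35.9 whose exact 95% interval for counting error alone was 6.13 to 1447. Avpi1 was at 15.6, 10.3, 188 and 293 CPM (log2 fold change 4.15, SE 0.53, edgeR adjusted p = 0.0252). Ly6g5b was at 15.6, 0, 161 and 204 CPM (edgeR adjusted p = 0.043), from 2 and 78 UMIs (ratio 29.8, 7.97 to 250.3 by the same interval). Without Csf3r+/+ library 2 and library 1 in turn, the log2 fold change was 3.78 and 7.49 for Sdc1 and 3.54 and 8.20 for Ly6g5b. The chemokine receptor Ccr2 was at 7.82, 41.1, 305 and 408 CPM (log2 fold change 3.62, SE 0.57, edgeR adjusted p = 0.043, 2.96 without Csf3r+/+ library 1 and 5.45 without library 2) and the actin-capping gene Capg at 133, 103, 981 and 1228 CPM (log2 fold change 3.19, SE 0.33, edgeR adjusted p = 0.0168). Furin rose from 3 to 66 UMIs (ratio 16.8, 5.50 to 83.5). The remaining genes that rose were Serpinb1a, Actn2, Pxdc1, Sepp1, Lmo4 and Ramp1, with log2 fold changes between 2.33 and 3.99. With 1 library left out, Serpinb1a ran from 3.44 to 5.25, Actn2 from 2.97 to 4.65 and Sepp1 from 2.48 to 3.71.

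Of the 10 genes that fell, 7 are annotated as processed pseudogenes, most of them copies of ribosomal protein genes. The share of such pseudogenes among all genes tested was not worked out, so this count is a description only. Rpl13a-ps1 was at 1080, 926, 150 and 123 CPM (log2 fold change -2.91, SE 0.31, edgeR adjusted p = 0.0168), and reads of such copies can be split with their parent genes. Scand1, which encodes a SCAN domain protein, was at 172, 206, 5.36 and 8.50 CPM (edgeR adjusted p = 0.0168), or 62 UMIs against 3, a ratio of 27.1 (8.84 to 134.8). Hist1h2al, a processed pseudogene named for histone H2A, was at 110 and 195 CPM in Csf3r+/+ members and had no UMI in Csf3r-/- members, at least 22.7-fold lower. The rest were Rpl27-ps3, Gm17430, Rpl9-ps6, Wdr89, Rpl13-ps3, Rps18-ps3 and Gm9493.

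**Figure D5:**
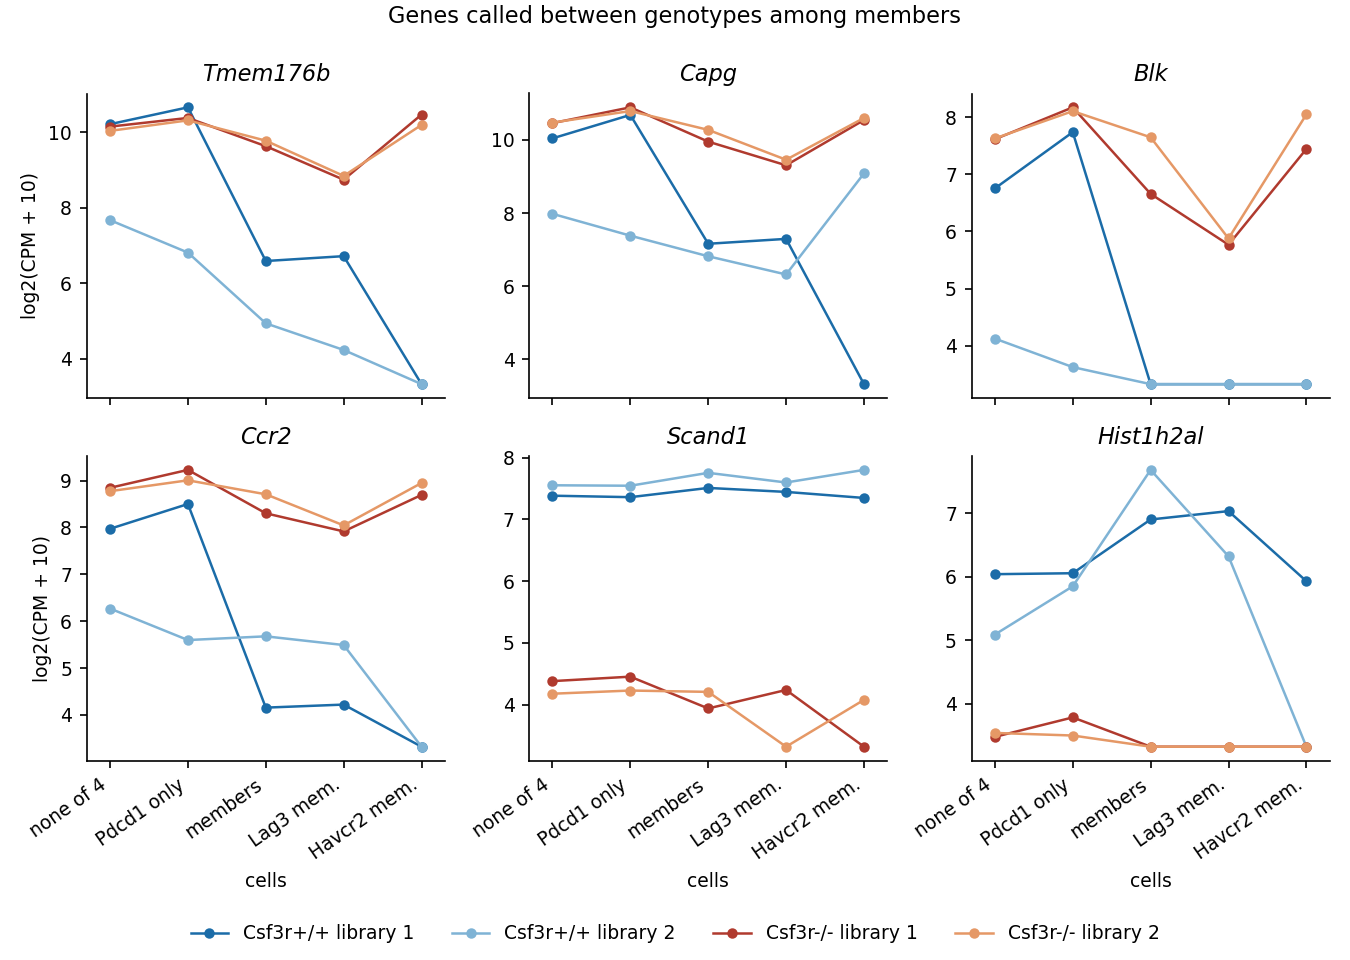
Level of 6 genes called between genotypes among members, as log2(CPM + 10), in cells lacking the 4 genes, with Pdcd1 alone, in all members and in members with Lag3 or with Havcr2, with 1 line for each library. Scand1 separates the genotypes in every class shown, whereas Tmem176b in Csf3r+/+ library 1 is level with Csf3r-/- mice in cells lacking the 4 genes and far lower in members.

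The same contrast was set beside these in the cells lacking all 4 genes, where edgeR called 0 of 10813 genes, with 1322 at an unadjusted p under 0.05. There the 10 genes that fell in members were lower too, with log2 fold changes such as -4.24 for Scand1 and -2.69 for Rpl13a-ps1 (edgeR adjusted p = 0.0767 for both) and -4.92 for Hist1h2al. The genes that rose in members were higher in Csf3r-/- cells by 0.10 to 2.03, such as 0.92 for Tmem176a, 0.63 for Tmem176b and 1.09 for Capg. Tmem176b stood there at 1177 and 194 CPM in Csf3r+/+ and at 1125 and 1040 CPM in Csf3r-/- libraries. Csf3r+/+ library 1 was thus level with the Csf3r-/- libraries and only Csf3r+/+ library 2 was low. In the depth-matched cells, where edgeR called 0 of 2700 genes, the genes that rose in members ran from -0.22 for Pxdc1 to 3.57 for Blk.

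Whether the genotype effect differed between members and their depth-matched cells was tested as an interaction. edgeR called 1 of 2552 genes (0.0392%), Tmem176b, with a difference of 3.29 between the log2 fold changes (SE 0.44, adjusted p = 0.0292, from 1.57e-16 to 0.554 over the alternatives). At an unadjusted p under 0.05 there were 135 genes (5.29%), 80 with a higher (3.13%) and 55 with a lower (2.16%) effect in Csf3r-/- mice. Tmem176b was at 86.1 and 20.6 CPM in Csf3r+/+ members against 1145 and 82.2 CPM in their matched cells. In Csf3r-/- mice it was at 782 and 910 CPM in matched members against 850 and 800 CPM. The gene was thus low in Csf3r+/+ members and level with the matched cells in Csf3r-/- mice. Tmem176a had a difference of 3.30 (SE 0.52, edgeR adjusted p = 0.066), from 1.91 to 3.82 with 1 library left out. The call of Tmem176b was lost under 5 alternatives while the difference kept its direction. It was 3.23 under an upper limit on genes per cell, 3.88 with at least 3 UMIs over the 4 genes, 3.64 without barcodes with macrophage or B cell genes, 5.20 after thinning and 2.00 without Csf3r+/+ library 1. Of the 12 natural killer receptor and adaptor genes tested, 6 had a higher effect in Csf3r-/- mice at an unadjusted p under 0.05 and none a lower one, with a median difference of 0.54 and no call. The count was 2 without Csf3r-/- library 1 and 6 to 7 without another library, and 2 of 8 without barcodes with macrophage or B cell genes. For Klra7, whose levels are given above, members lay further below matched cells in Csf3r+/+ than in Csf3r-/- mice, by 1.41 on the log2 scale (SE 0.45, edgeR adjusted p = 0.709). This gene was picked after its values were seen, and its difference ran from 0.16 without cycling cells to 2.43 without Csf3r+/+ library 2, where edgeR called it (adjusted p = 3.17e-05).

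The partner gene varied by library. Havcr2 was found in 37.8% and 70.8% of members of the Csf3r-/- libraries, against 14.8% and 9.09% in the Csf3r+/+ libraries. Lag3 was nearly level in Csf3r+/+ library 2 (60.6%) and Csf3r-/- library 1 (59.5%). It was at 92.6% in Csf3r+/+ library 1 and 26.2% in Csf3r-/- library 2. The list of type 3 genes summed to 985, 140, 2491 and 2450 CPM in members with Lag3, and to 357, 1065, 7495 and 6795 CPM in members with Havcr2, beside 4494, 906, 6098 and 5790 CPM in cells lacking the 4 genes. Tmem176b was at 95.1, 8.74, 418 and 449 CPM in members with Lag3. In members with Havcr2 it was at 0, 0, 1406 and 1161 CPM, from only 4 and 3 cells in the Csf3r+/+ libraries. Within either partner the Csf3r-/- libraries stood above both Csf3r+/+ libraries for this gene, and the levels in Csf3r-/- mice were higher with Havcr2 than with Lag3. The part of the partner in the genotype difference was not tested.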

How the data were processed

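Droplet libraries of sorted UTCαβ from 4 sarcomas were analysed, 2 of each genotype. Per the methods and the submitters' notes, reads were aligned to mm10 and deduplicated by UMI with Cell Ranger, libraries of a genotype were aggregated, and Seurat 2.3.4 and R 3.4.4 were used downstream. The deposited values are raw counts of UMIs per gene and barcode for 27998 genes, in 1 matrix per genotype, and 0 columns lacked a sample. Aggregation can level read depth between libraries, and whether strand was used in counting is not given in the sources used here. The limits the study states, with upper bounds of 3500 and 4000 genes per barcode, leave 15078 of 15137 Csf3r+/+ and 17303 of 17388 Csf3r-/- barcodes. Leaving out barcodes without a Cd3e UMI, as the study also states, leaves 9290 and 12041, fewer than the cells it describes, for a reason not given in the sources used here. No doublet caller was run.

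The UMIs of the cells with Cd3e summed to 9827411 and 23753033 in Csf3r+/+ libraries 1 and 2 and to 14166978 and 16241257 in Csf3r-/- libraries 1 and 2. UMIs were summed by library and class and tested with edgeR 4.0.16 (quasi-likelihood, TMM, filterByExpr, Benjamini-Hochberg at 0.05) in R 4.3.3, with DESeq2 1.42.0 as an alternative. The genes of the rule and mitochondrial genes were not tested. Comparisons of cell classes within a library had the library as a block, and genotypes were compared without one. The labels number the samples of each genotype, but nothing ties the number after a barcode to an animal. The methods call the samples biological replicates from 2 mice per genotype, and p-values over 2 libraries of a genotype measure the spread between these. Pairs were formed from the deepest member down without reuse. Python 3.11.15 and scipy 1.17.1 gave exact tests and intervals. Counts were simulated at a dispersion of 0.05 between libraries, from the same mean share of UMIs per gene in every library. In them, 200 genes drawn from the more abundant ones were changed by 2 log2 units. Of these genes edgeR recovered 99.5% for members against matched cells, 95.5% between genotypes, 67% for the interaction and 100% for members against Pdcd1-only cells. DESeq2 recovered 97.5%, 77%, 42.5% and 98% in the same order. Among the edgeR calls 0%, 5.91%, 2.90% and 3.85% were false in that order. These rates do not cover genes of low counts, and an absence of calls in the data does not exclude changes of this size.

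Members, 31 gene lists (418 of 431 genes listed in the files) and tests were chosen with earlier results of these data known. Genes were named by rule: the 4 genes of the rule, the 10 largest called changes in each direction (5 in other comparisons) with 1 direction in all libraries and at least 20 CPM, and for each list the 3 with the smallest adjusted p and the most abundant. Tnfrsf4, Ctla4, Tox, Cd83, Ifi27l2a and Plac8 were chosen after their values were seen. Gene positions are from GENCODE on GRCm38.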

Additional observations from a re-analysis of the deposited data

Results flagged for a closer look

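Tmem176b was picked out because its genotype effect differed between members and matched cells in the interaction test, by 3.29 on the log2 scale (edgeR adjusted p = 0.0292). It was low in the members of both Csf3r+/+ libraries, at 86.1 and 20.6 CPM, and level with matched cells in both Csf3r-/- libraries. The matched cells stood at 1145 and 82.2 CPM in Csf3r+/+ libraries 1 and 2, so the contrast rested mainly on library 1. Without that library the difference was 2.00, and several alternatives given above lost the call. The cause was not tested.

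Cells outside the rule also held Pdcd1 with a partner. Among cells with Cd3e, 196 of 358 with Pdcd1 and a partner (54.7%) were kept out by Foxp3, Gzmk or Il17a, as 82 and 20 in the Csf3r+/+ and 20 and 74 in the Csf3r-/- libraries. Gzmk kept out 81, 7, 11 and 25 of them, Il17a 0, 1, 9 and 50, and Foxp3 1, 12, 0 and 10, so the gene that kept most cells out was Gzmk in Csf3r+/+ library 1 and Il17a in Csf3r-/- library 2. Among 11050 barcodes without a Cd3e UMI, 45 (0.407%) had Pdcd1 and a partner, as 6, 19, 1 and 19 in the 4 libraries.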

How the results depend on the processing

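The share of members by genotype, 0.101 percentage points higher in Csf3r-/- mice, turned to -0.0291 after thinning, -0.107 with at least 3 UMIs over the 4 genes and -0.0069 without the Cd3e minimum. It ranged from -0.119 (without Csf3r+/+ library 2) to 0.320 (without Csf3r+/+ library 1) with 1 library left out, and was -0.0209 without Csf3r-/- library 2. The causes were not tested.

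Members against matched cells gave 0 calls, and 1 with DESeq2, 157 with all cells and no depth matching, 12 with 5 matched cells per member, 30 for members with Lag3, 5 with at most 10000 UMIs, 9 with at least 3 UMIs over the 4 genes, 8 without cycling cells, 48 with no filter on low counts, 3 without barcodes with macrophage or B cell genes, 1 after thinning, 2 when comparison cells could hold Foxp3, Gzmk or Il17a, and 0 to 2 with 1 library left out. Members against Pdcd1-only cells gave 2 with all cells, 4 with 5 matched cells, 1 without cycling cells, 90 with no filter and 0 to 17 with 1 library left out. Between genotypes, 25 calls became 10 with at most 10000 UMIs, 0 with at least 3 UMIs over the 4 genes, 218 with no filter, 45 without barcodes with macrophage or B cell genes, 0 after thinning and 0 (without Csf3r-/- library 2) to 287 (without Csf3r+/+ library 1) with 1 library left out, with 98 without Csf3r+/+ library 2 and 109 without Csf3r-/- library 1. The interaction gave 52 with all cells, 4 with 5 matched cells, 0 under the upper limit on genes per cell, 7 with at most 10000 UMIs, 0 with at least 3 UMIs over the 4 genes, 6 without cycling cells, 33 with no filter, 0 without barcodes with macrophage or B cell genes, 0 after thinning and 6 to 43 with 1 library left out. A fit that leaves a genotype with 1 library assumes that it varies like the other.

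With the number after the barcode as a replicate block, the genotype comparison called 117 genes in place of 25. The barcodes' numbers are not tied to animals, so the block pairs libraries by number only. Without the library block, the counts of the comparisons of cell classes stayed at 0.

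Single genes reversed in 49 of the gene values recomputed, mostly near 0. With all cells and no depth matching the log2 fold change was -0.11 for Cd3g, -0.0493 for Cd72, 0.23 for Cd74, 0.73 for H2-Aa, -0.58 for Icos, -0.0534 for Srgn and 0.36 for Tyrobp. Without cycling cells it was 0.0219 for Cd96, -0.12 for Cd160, 0.023 for Rgs1, -0.10 for Icos, 0.15 for Ltb and 0.0089 for Tmsb4x. With comparison cells holding Foxp3, Gzmk or Il17a it was -0.0421 for Cd72, -0.0032 for Cd160, -0.05005 for Icos and -0.60 for Cxcl10. With DESeq2 it was -0.0021 for Cd160 and -0.044 for Icos. With 5 matched cells it was -0.14 for Cd160 and -0.0376 for Icos. Under the limit on genes per cell it was -0.0259 for Cd160, and with no filter on low counts -0.0167. With at most 10000 UMIs it was -0.0589 for Cd160 and -0.0093 for Icos. With at least 3 UMIs over the 4 genes it was -0.10 for Cd160, -0.0208 for Icos, 0.10 for Serpinb6b and -0.33 for Cxcl10. Without barcodes with macrophage or B cell genes it was -0.31 for Cd160, 0.12 for Serpinb9 and 0.26 for Serpinb6b. After thinning it was 0.27 for Rgs1 and 0.36 for Ltb. For members with Lag3 it was -0.29 for Icos, -0.0148 for Srgn, 0.26 for Serpinb6b and -0.15 for Cxcl10. Without the library block it was 0.054 for Cxcr6. With 1 library left out it ranged from -0.088 to 0.0703 for Cd160, -1.04 to 0.42 for H2-Aa, -0.29 to 0.12 for Rgs1, -0.14 to 0.18 for Icos, -1.17 to 0.0864 for Serpinb9, -0.44 to 0.0436 for Serpinb6b, -0.31 to 0.31 for Nkg7 and -0.55 to 0.0271 for Cxcr6.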
